A study of Homo sapiens with 3 samples.

Results

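The 8 genes HMGCS1, IDI1, FDFT1, SQLE, LSS, INSIG1, SREBF1 and SREBF2 are regulated by sterols and were taken by name from the deposited gene values. All 8 were found among the 23284 listed gene names, and all 8 had a mean FPKM of at least 1, as did 12830 genes in total. FPKM is the number of fragments mapped to a gene, scaled by the length of its exons and by library size. RNA-seq was conducted on 293T cells, a line derived from human embryonic kidney, which all expressed dCas9-VP64, a non-cleaving Cas9 fused with a transcriptional activator. Control cells carried a mock sgRNA from the empty parental vector. The other cells carried sgL1ASP #1 or sgL1ASP #3, guides against the antisense promoter (ASP) of the retrotransposon LINE-1 (L1). The comparison asks whether targeting the L1 ASP moves the transcriptome. One library was made for each of the 3 conditions, so the differences below have no replicates behind them and are given without p-values. The time of harvest for RNA-seq is not given in the sources used here, and neither is the share of cells that took up the vectors.

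Cholesterol is built from acetyl-CoA through mevalonate, isoprenoids and squalene. Cells adjust this pathway to their sterol content through the SREBP transcription factors, encoded by SREBF1 and SREBF2. When sterols are low, SREBPs are carried from the endoplasmic reticulum to the Golgi and cut, and the released fragment enters the nucleus and activates the genes of synthesis and uptake. When sterols are high, INSIG proteins hold the SREBPs in the endoplasmic reticulum. The 8 genes therefore cover enzymes of synthesis, a brake and the regulators. Genes of sterol uptake are not among the 8 and were followed in a separate list.

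The depth of the libraries, estimated from the FPKM that a single read is worth, was 10400000 reads for mock, 10300000 for sgL1ASP #1 and 8700000 for sgL1ASP #3. FPKM was above 0 in 16440 to 16693 genes. None of 8 widely expressed genes was listed at 0, but they were picked after the files were seen, so this does not check the libraries. Neurofilament and intermediate filament genes typical of this line (NEFL, NEFM, NEFH, INA and VIM) were above 0 in every library. Their summed FPKM, from 852.3 to 952.4, was mostly VIM (807.4 to 903.5), and NEFH was as low as 0.190 to 0.384. Markers of other cells were low. The summed FPKM was 3.64 to 5.85 over 3 hepatocyte genes, 2.16 to 2.61 over 3 leukocyte genes, 2.28 to 3.01 over 3 fibroblast genes and 0.635 to 0.951 over 3 squamous epithelium genes, and PTPRC, CD3E, APOB, DCN and KRT14 were listed at 0 in all 3 libraries. The sums of the hepatocyte, leukocyte, fibroblast and squamous lists were highest in mock, and their part in the results was not tested.

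Start regions were searched for exact copies of sterol control motifs and of general promoter motifs. RefSeq promoters of GRCh38.p14 were taken from 250 bases before to 50 bases after each start. Those of 6 of the 8 genes were searched (9 promoters, since HMGCS1 has 2 starts and IDI1 has 3). These were placed on GRCh37, the sequence of hg19, by exact match. FDFT1 and SQLE were not included in the search, so it says nothing about their promoters. In total, 4 motifs were searched on both strands. The sterol regulatory element TCACCCCAC, which SREBPs bind, was in 0.430% of all 35116 promoters and in 1 of the 9, that of SREBF2. The E-box TCACGTGA, a palindrome that SREBPs can also bind, was in 0.980% of all promoters and in 1 of the 9, that of INSIG1. The CCAAT box, a site of NF-Y, was in 34.6% of all promoters and in 6 of the 9. Counted by gene, 5 genes had it in at least 1 promoter, HMGCS1, IDI1, INSIG1, LSS and SREBF2. The GC box GGGCGG, a site of Sp1, was in 45.0% of all promoters and in all 9 promoters of the 6 genes, and several GC boxes overlap each other. Distances below are counted from the RefSeq starts, which can differ from the gene spans given further on. By those spans, the E-box of INSIG1 and the CCAAT box shown for HMGCS1 lie inside the gene. The following stretches are shown because they carry these elements near the RefSeq starts of genes whose values are described below. Each is read 5′ to 3′ in the direction of the gene, with the motif in capitals (ATTGG is CCAAT on the other strand).
SREBF2, sterol regulatory element, 133 bases before the start, plus strand, chr22:42228966-42228995: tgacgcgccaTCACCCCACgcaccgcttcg
SREBF2, CCAAT box, 106 bases before the start, plus strand, chr22:42228991-42229020: cttcgctcgcccATTGGctgagatgagcct
INSIG1, E-box, 56 bases before the start, plus strand, chr7:155089521-155089550: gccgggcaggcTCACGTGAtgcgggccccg
INSIG1, CCAAT box, 170 bases before the start, plus strand, chr7:155089406-155089435: cgccggcctcccATTGGttgcggccgcctc
HMGCS1, CCAAT box, 100 bases before the start, minus strand, chr5:43313597-43313626: ctaccggccgcgATTGGctgtgggagccac
LSS, CCAAT box, 150 bases before the start, minus strand, chr21:47648821-47648850: cgcggcgctctgATTGGttgcgtgggcgtc
SREBF1, GC box, 91 bases before the start, minus strand, chr17:17740374-17740403: tctctcaaggtgGGGCGGggccgtctatct
A match is a run of letters and not a measured binding site. Only exact copies were sought, so a missing match does not show that an element is absent.

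None of the 8 genes differed from mock by more than 1.5-fold with either guide, while 3.55% of all genes at a mean FPKM of 1 or more did so with sgL1ASP #1 and 3.8% with sgL1ASP #3. The log2 ratios of the 8 genes to mock, taken on log2(FPKM + 0.1), lay between -0.18 and 0.082 with sgL1ASP #1 and between -0.16 and 0.077 with sgL1ASP #3. LSS was farthest from mock with both guides. Between the guides 0 of the 8 genes passed 1.5-fold, against 3.77% of all genes. A rise of over 1.5-fold from mock to sgL1ASP #3 and again from sgL1ASP #3 to sgL1ASP #1, the 2 steps that the study names for its screen, was met by 0 of the 8 genes and by 0.101% of genes at a mean FPKM of 1 or more. Without that filter, which the study does not state, the share was 0.481%, and other details of its selection were not rebuilt here. Summed over the 8 genes, FPKM was 447.2 with mock, 432.0 with sgL1ASP #1 and 431.6 with sgL1ASP #3.

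**Figure D1:**
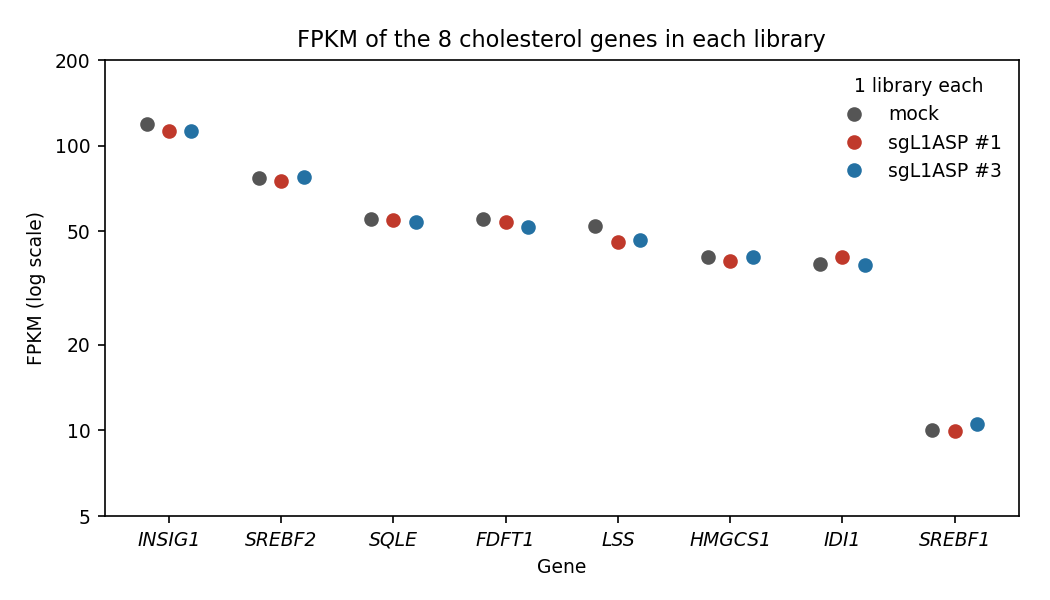
FPKM of each of the 8 genes (log axis) in mock, sgL1ASP #1 and sgL1ASP #3, with 1 point per library and genes ordered by mean FPKM. The 3 points of a gene lie close together, with the highest FPKM at most 1.14 times the lowest (LSS), while the genes themselves span 9.95 to 118.9.

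The first enzymes act on the way to the isoprenoid units. HMGCS1 (ENSG00000112972) makes HMG-CoA in the cytosol and lies on chromosome 5 of GRCh37, minus strand, from 43287572 to 43313614. Its FPKM was 40.5 with mock, 39.3 with sgL1ASP #1 and 40.5 with sgL1ASP #3, so that only sgL1ASP #1 stood slightly lower. The log2 ratio against mock was -0.043 for sgL1ASP #1, with a standard error of 0.044 from counting error alone, and the ratio of sgL1ASP #3 to mock was 1.00. IDI1 (ENSG00000067064) interconverts the isopentenyl and dimethylallyl diphosphates and lies on chromosome 10, minus strand, from 1085092 to 1095059. Its FPKM was 38.4 with mock, 40.7 with sgL1ASP #1 and 38.1 with sgL1ASP #3. It was the single gene of the 8 above mock with sgL1ASP #1, with a log2 ratio of 0.082 (standard error 0.063), and it was below mock too once the libraries were rescaled to the same FPKM sum. The log2 ratio with sgL1ASP #3 was -0.013 (standard error 0.067). The log2 ratio between the guides, 0.095, was the largest of the 8 genes in that comparison, and its 95% counting interval ran from -0.035 to 0.23. A noncoding gene on the other strand, IDI2-AS1, overlaps IDI1 and had FPKM 3.00, 2.84 and 2.53 in mock, sgL1ASP #1 and sgL1ASP #3. The authors' counting was strand specific.

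FDFT1, SQLE and LSS act one after the other, joining farnesyl units to squalene, oxidising squalene and closing the ring to lanosterol. FDFT1 (ENSG00000079459), on chromosome 8, plus strand, from 11653082 to 11696904, had FPKM 55.3 with mock, 53.7 with sgL1ASP #1 and 51.8 with sgL1ASP #3. The log2 ratio against mock was -0.041 (standard error 0.063) with sgL1ASP #1 and -0.095 (standard error 0.067) with sgL1ASP #3. Both guides were below mock for this gene, within counting error. SQLE (ENSG00000104549), on chromosome 8, plus strand, from 126010739 to 126034525, had FPKM 55.2, 54.9 and 54.1 in mock, sgL1ASP #1 and sgL1ASP #3. It was the steadiest of the 3 enzymes, with log2 ratios of -0.0093 and -0.030 to mock and standard errors of 0.051 and 0.054.

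LSS (ENSG00000160285), on chromosome 21, minus strand, from 47608055 to 47648738, had FPKM 52.0 with mock, 45.8 with sgL1ASP #1 and 46.6 with sgL1ASP #3. Mock was the high library, and the guides lay close to each other. The ratio to mock was 0.880 with sgL1ASP #1 and 0.896 with sgL1ASP #3, or log2 ratios of -0.18 (standard error 0.042) and -0.16 (standard error 0.044). The 95% counting intervals ran from -0.27 to -0.10 and from -0.24 to -0.072, while between the guides the interval ran from -0.11 to 0.062. At the estimated depth LSS was covered by about 2544 reads with mock, 2210 with sgL1ASP #1 and 1895 with sgL1ASP #3. A difference of this size was common among all genes. With sgL1ASP #1, 24.7% of genes with mean FPKM at least 1 were farther from mock than LSS in either direction, and 30.03% were with sgL1ASP #3. Among the 7231 genes with mean FPKM at least 10 these shares were 12.3% and 16.6%. Both ratios share the mock library, so they are not independent of each other.

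The genes with the pattern most like LSS, by the distance of both log2 ratios to mock over the 3 libraries among 7223 other genes with mean FPKM at least 10, were EGLN2, DOLK and LOC100505648. EGLN2, an oxygen-dependent prolyl hydroxylase gene, had FPKM 37.3 with mock, 32.8 with sgL1ASP #1 and 33.5 with sgL1ASP #3. DOLK, which encodes dolichol kinase, had FPKM 11.9, 10.5 and 10.6 in the same order, and LOC100505648 had 10.98, 9.67 and 9.88. The distances were 0.0042, 0.0063 and 0.0066, and 471 genes lay within 0.1 of LSS, so that with 3 libraries many genes shared this pattern.

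INSIG1 (ENSG00000186480), on chromosome 7, plus strand, from 155089486 to 155101945, encodes the sterol-sensing retention protein of the SREBP pathway and is itself a target of SREBPs. It had the highest FPKM of the 8 genes in every library, 118.9 with mock, 112.2 with sgL1ASP #1 and 112.4 with sgL1ASP #3. As for LSS, mock was the high library and the guides were nearly equal. The log2 ratio against mock was -0.084 (95% counting interval -0.15 to -0.013) with sgL1ASP #1 and -0.081 (-0.15 to -0.0076) with sgL1ASP #3. In size, 54.3% and 55.6% of all genes at a mean FPKM of 1 or more were farther from mock than this. Between the guides the log2 ratio was -0.0025 (standard error 0.038). Its paralog INSIG2, with the same role in retention, had FPKM 11.5 with mock, 11.6 with sgL1ASP #1 and 9.64 with sgL1ASP #3.

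The regulators differed from each other in level far more than between libraries. SREBF2 (ENSG00000198911), on chromosome 22, plus strand, from 42229109 to 42303310, encodes SREBP-2, which mainly drives cholesterol genes. Its FPKM was 76.9 with mock, 75.4 with sgL1ASP #1 and 77.6 with sgL1ASP #3, and the log2 ratio against mock was -0.027 (standard error 0.032) and 0.014 (standard error 0.034). SREBF1 (ENSG00000072310), on chromosome 17, minus strand, from 17713713 to 17740316, encodes the SREBP-1 proteins, which mainly drive fatty acid genes. Its FPKM was 9.99, 9.95 and 10.5 in the same libraries, and its log2 ratios of -0.0065 and 0.077 had the widest standard errors of the 8 genes, 0.093 and 0.095. The guides lay on opposite sides of mock for both genes, in each case within counting error. FPKM of SREBF2 was 7.69 times that of SREBF1 in mock, 7.58 times in sgL1ASP #1 and 7.36 times in sgL1ASP #3. RAI1, on the opposite strand, overlaps the end of SREBF1 and had FPKM 12.9 to 13.3.

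Both SREBF genes carry a microRNA gene in an intron on their own strand, intron 16 of the canonical transcript in each case. The mature 5p forms are shown because they share their seed (bases 2 to 8, in capitals), and the hairpins lie at chr22:42296948-42297016 in SREBF2 and chr17:17717150-17717245 in SREBF1.
hsa-miR-33a-5p: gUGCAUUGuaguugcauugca
hsa-miR-33b-5p: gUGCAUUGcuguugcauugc
MIR33A and MIR33B were listed at 0 in all 3 libraries, which were prepared for mRNA. Of the paralogs of the enzymes, IDI2 had FPKM 4.11 with mock, 4.52 with sgL1ASP #1 and 4.87 with sgL1ASP #3, with standard errors of 0.28 and 0.29 on its log2 ratios to mock of 0.14 and 0.24.

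**Figure D2:**
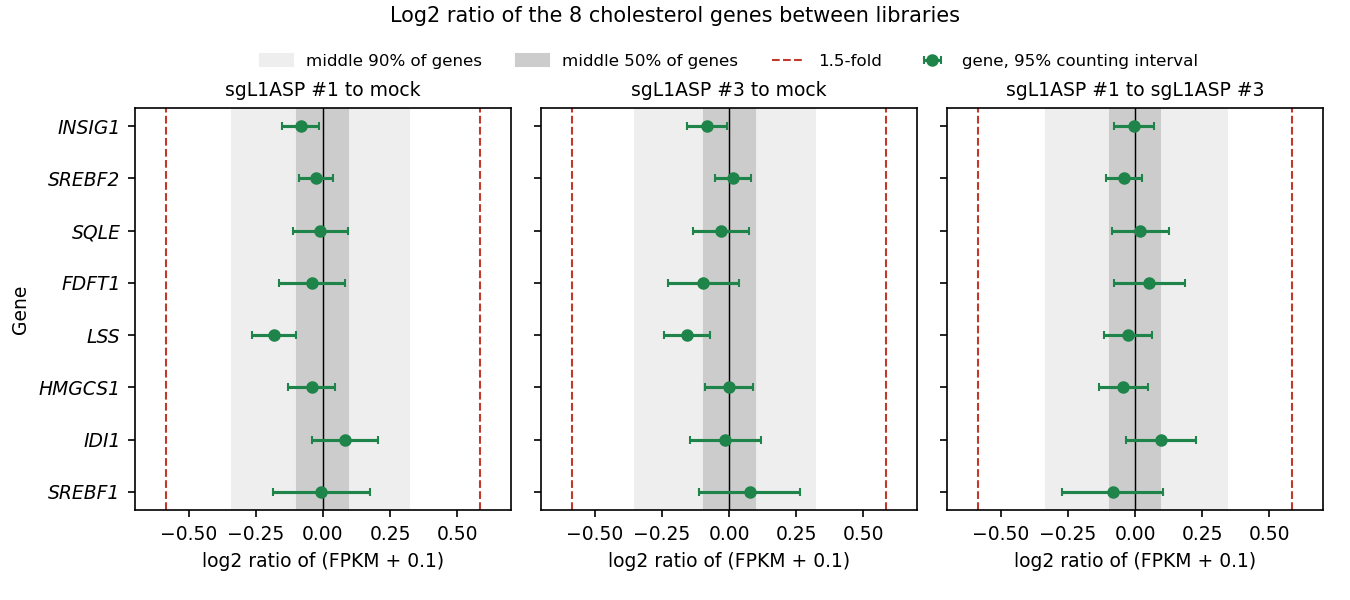
Log2 ratio of (FPKM + 0.1) for each of the 8 genes in the 3 comparisons, with bars for the 95% counting interval, grey bands for the middle 50% and 90% of the 12830 genes with mean FPKM at least 1, and dashed lines at 1.5-fold. All 8 genes lie inside the middle 90% in each comparison, and the intervals of LSS and INSIG1 leave out 0 against mock with both guides.

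Over the 8 genes, the median log2 ratio against mock was -0.034 with sgL1ASP #1 and -0.022 with sgL1ASP #3, beside medians of 0.00085 and 0.0015 over all genes at a mean FPKM of 1 or more. With sgL1ASP #1, 7 of the 8 genes were below mock, and with sgL1ASP #3, 5 were, but all 8 were below mock with both guides once the libraries were rescaled to the same FPKM sum, which moved the median of all genes to -0.092 and -0.12. FDFT1, INSIG1, LSS and SQLE were below mock with both guides, 0 genes were above mock with both, and the other 4 had opposite signs, of which HMGCS1 with sgL1ASP #3 was so near mock that it lay below it after rescaling to the median ratio. These counts of direction include differences far below counting error, such as -0.0065 for SREBF1 with sgL1ASP #1. The median size of the log2 ratio, without its sign, was 0.042 and 0.053 for the 8 genes and 0.094 and 0.095 for all genes, or 0.070 and 0.071 for genes with mean FPKM at least 10. A 95% counting interval that left out 0 was found for 2 of the 8 genes with each guide, LSS and INSIG1, against 16.7% of 10950 genes with a transcript length for sgL1ASP #1 and 15.2% for sgL1ASP #3. Among 6294 of these genes with mean FPKM at least 10 the shares were 19.4% and 17.3%. Between the guides it was found for 0 of the 8 genes and for 14.5% of all genes. These intervals compare the reads of single libraries and not the conditions.

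**Figure D3:**
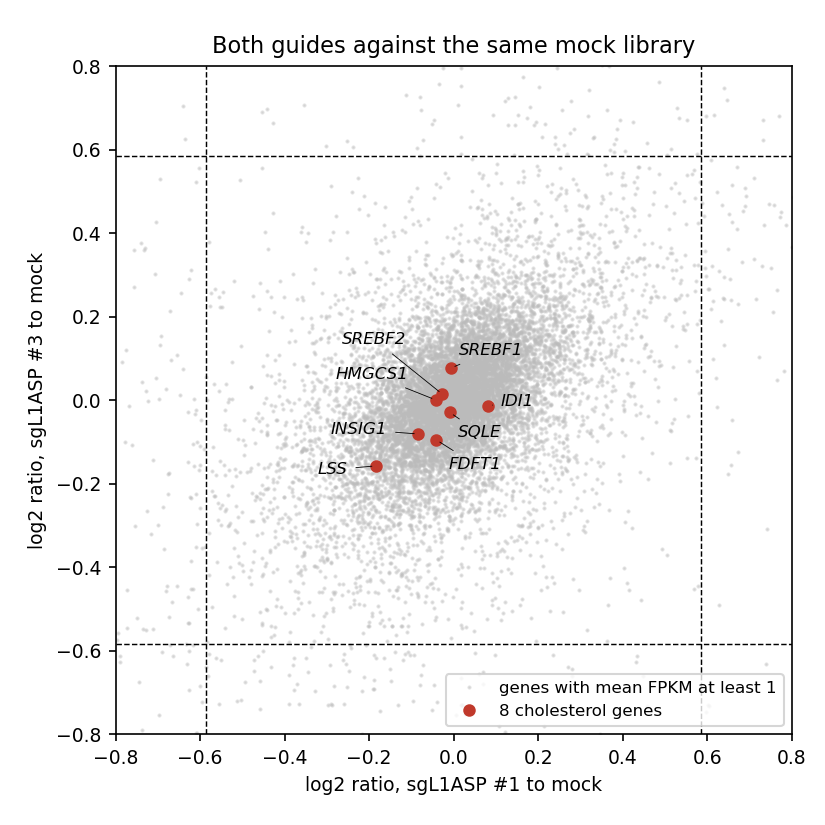
Log2 ratio to mock with sgL1ASP #1 (x axis) and sgL1ASP #3 (y axis) for all genes at a mean FPKM of 1 or more in grey and the 8 genes in red, with dashed lines at 1.5-fold. The 8 genes sit in the dense centre with LSS lowest on both axes, both axes share the mock library, and 415 genes fall outside the plotted range of 0.8.

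The order of the genes by level, which FPKM allows because it is per length, was INSIG1, SREBF2, FDFT1, SQLE, LSS, HMGCS1, IDI1 and SREBF1 in mock. SQLE and FDFT1 changed places in both guide libraries, and HMGCS1 and IDI1 changed places in sgL1ASP #1. Neither pair could be told apart by its counting interval in any library. For FDFT1 and LSS, the log2 ratio of their levels was 0.088 in mock (standard error 0.053). It was 0.23 in sgL1ASP #1 (standard error 0.055) and 0.15 in sgL1ASP #3 (standard error 0.060). They could not be told apart in mock but could be in the guide libraries. Whether this ratio changed between libraries was not tested. SQLE and LSS, neighbours in mock, could not be told apart there either, with a log2 ratio of 0.086 (standard error 0.046). The other neighbours in each library's own order differed beyond counting error. SREBF1 was separated from the rest by the widest step. On the log2 scale, IDI1 was next above it in mock (by 1.94) and sgL1ASP #3 (by 1.85), and HMGCS1 in sgL1ASP #1 (by 1.98).

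The rest of the pathway was followed in 5 lists, in which 0 genes with mean FPKM at least 1 passed 1.5-fold against mock with either guide. Of all genes at that level, 3.55% passed it with sgL1ASP #1 and 3.8% with sgL1ASP #3. At these shares, lists of this size would hold few such genes. The counts above mock that follow hold for FPKM as deposited. After rescaling to the same FPKM sum every list median against mock was below 0. The median of all genes was then also below 0, at -0.092 with sgL1ASP #1 and -0.12 with sgL1ASP #3. Of 18 further genes of mevalonate and sterol synthesis, all with mean FPKM at least 1, 9 were above mock with sgL1ASP #1 and 11 with sgL1ASP #3, and the median log2 ratio was 0.0036 and 0.015. FDPS, which makes the farnesyl diphosphate used by FDFT1, had the highest level of this list, with FPKM 87.9 with mock, 88.3 with sgL1ASP #1 and 86.2 with sgL1ASP #3. MVK, the kinase of mevalonate, and HSD17B7, a sterol ketone reductase, were farthest from mock over both guides, through their values with sgL1ASP #3. MVK had FPKM 10.7, 11.4 and 12.2 and HSD17B7 9.07, 9.78 and 10.4, and with sgL1ASP #3 the log2 ratio was 0.19 for both (standard errors 0.12 and 0.18). On the lower side, ACAT2, which joins acetyl-CoA units, was at -0.17 with sgL1ASP #3 (standard error 0.087) and ERG28 (C14orf1) was at -0.15 with sgL1ASP #1, the farthest of the list with that guide, and both were named after their values were seen.

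The genes that hold, carry or cut the SREBPs also stayed within 1.5-fold of mock. Among 9 such genes the median log2 ratio was 0.0059 with sgL1ASP #1 and 0.026 with sgL1ASP #3, and 6 were above mock with each guide. SCAP, the escort of the SREBPs, had the highest mean FPKM of the list, though FAF2 was slightly above it in mock (46.6), and its FPKM was 46.0 with mock, 46.4 with sgL1ASP #1 and 47.7 with sgL1ASP #3. INSIG2 was farthest from mock, with a log2 ratio of -0.26 (standard error 0.11) with sgL1ASP #3 and 0.0086 with sgL1ASP #1. ERLIN1, which takes part in the turnover of endoplasmic reticulum proteins, had a log2 ratio of 0.12 with each guide (standard errors 0.074 and 0.077).

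Of 11 genes of sterol uptake and transport, 9 had mean FPKM at least 1, of which 5 were above mock with sgL1ASP #1 and 8 with sgL1ASP #3. The median log2 ratio was 0.034 and 0.086. NPC2, which moves cholesterol out of lysosomes, had FPKM 146.1 with mock, 154.8 with sgL1ASP #1 and 153.9 with sgL1ASP #3. MYLIP, a ubiquitin ligase that removes lipoprotein receptors, had FPKM 4.59, 5.08 and 5.56, and its log2 ratio of 0.27 with sgL1ASP #3 had a standard error of 0.17.

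Of 10 genes of fatty acid synthesis, 5 were above mock with each guide, and the median log2 ratio was 0.031 with sgL1ASP #1 and 0.0084 with sgL1ASP #3. SCD, the stearoyl-CoA desaturase, had FPKM 126.0 with mock, 135.6 with sgL1ASP #1 and 131.1 with sgL1ASP #3. On FPKM as deposited, its log2 ratios to mock were 0.11 (standard error 0.025) and 0.056 (standard error 0.026). Both were above 0 beyond counting error. ELOVL6, a fatty acid elongase, had FPKM 5.65, 4.82 and 5.61, and FADS2, a fatty acid desaturase, had 10.8, 11.3 and 12.6. For ELOVL6 the log2 ratio with sgL1ASP #1 was -0.23 (standard error 0.11), below 0 beyond counting error. ELOVL6 was named because it was among the farthest from mock in its list. The counting interval left out 0 for 16.7% of all genes with a transcript length with sgL1ASP #1 and 15.2% with sgL1ASP #3. Only 3 of 8 genes of sterol efflux and esterification had mean FPKM at least 1. Among them NR1H3, an oxysterol receptor of the LXR type, had FPKM 13.3 with mock, 14.7 with sgL1ASP #1 and 14.9 with sgL1ASP #3, and NR1H2, the other LXR, had 8.49, 7.32 and 9.005. The median log2 ratio of these 3 genes was 0.016 with sgL1ASP #1 and 0.083 with sgL1ASP #3.

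**Figure D4:**
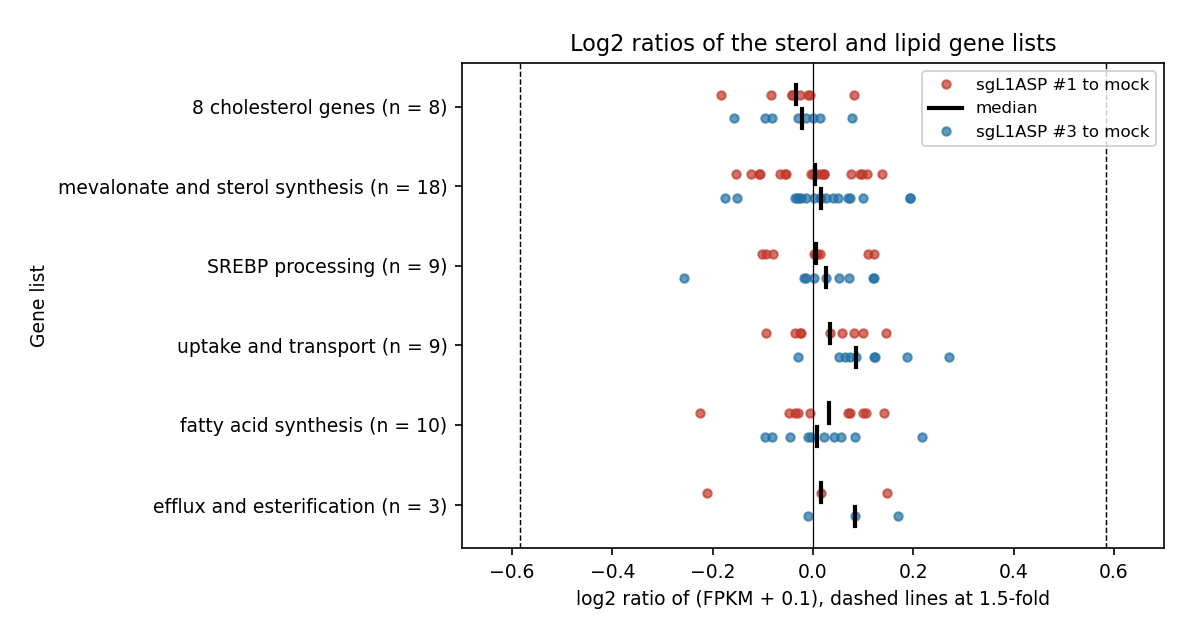
Log2 ratios to mock of the 8 genes and of the 5 other lists, with 1 point per gene with mean FPKM at least 1, red for sgL1ASP #1, blue for sgL1ASP #3, black bars for the medians and dashed lines at 1.5-fold. Every point lies between -0.26 and 0.27, inside the 1.5-fold lines.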

How the data were processed

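RNA-seq of 3 libraries, 1 per condition, was analysed, each assigned to its condition from the labels. Per the paper's methods, TruSeq stranded mRNA libraries were sequenced in 75-base single-end mode and mapped to hg19 (TopHat 2.0.13 on Bowtie2 2.2.3, with SAMtools 0.1.19). The authors calculated and deposited 1 FPKM value per gene with Cuffdiff (Cufflinks 2.2.1) in strand-specific mode. The annotation and the scaling between libraries are not given in the sources used here.

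FPKM was used as deposited. Log2 ratios used a pseudocount of 0.1, which understates changes of low genes, and a gene was called past 1.5-fold. With 1 library per condition no test was run. The depth was estimated from 954 to 1001 genes with a single GENCODE 44 transcript over 1000 bases, after taking off a fragment of 200 bases; 44 to 68 of them gave the value of 1 read. Reads per gene followed from the canonical transcript length, and the 95% counting interval is 1.96 standard errors. It covers counting error only and assumes that length. Named genes are the 8 genes, their paralogs and intronic microRNAs, and in each list the highest gene and those farthest from mock; some of them are not reported here. Of the listed genes, 2 were found under an older name. The genes, lists and motifs were chosen with earlier results of these data, or the sequences, known, and the 8 widely expressed genes were picked after the files were seen. The alternatives were other pseudocounts, scalings, folds and filters. The scripts were tested on simulated data. Python 3.11.15, NumPy 2.4.6, pandas 2.3.3 and matplotlib 3.10.9 were used.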

Additional observations from a re-analysis of the deposited data

How the results depend on the processing

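With a 2-fold or a 1.2-fold threshold, a pseudocount of 0 or 1, or either rescaling, 0 of the 8 genes were called in any comparison. These settings were changed one at a time, and the share of all genes was not computed at 2-fold or 1.2-fold. After rescaling to the same FPKM sum, LSS would pass 1.2-fold, with a log2 ratio of -0.28 to mock with each guide. Rescaling to the median ratio moved no value beyond its limit (the counting interval for a gene or a sum, 0.1 for a median). Rescaling each library to an FPKM sum of 1000000 shifted the all-gene median log2 ratio, which was near 0, to -0.092 (sgL1ASP #1) and -0.12 (sgL1ASP #3). All 8 genes were then below mock with both guides, while 1 and 2 of them were above the median of all genes. In this setting the log2 ratio with sgL1ASP #1 was -0.14 for HMGCS1, -0.18 for INSIG1, -0.28 for LSS and -0.12 for SREBF2. With sgL1ASP #3 it was -0.12 for HMGCS1, -0.20 for INSIG1, -0.15 for SQLE, -0.28 for LSS and -0.11 for SREBF2. The median of the 8 genes with sgL1ASP #3 was -0.14, which is -0.024 from that of all genes. The list medians with sgL1ASP #3 were -0.10 for sterol synthesis, -0.093 for SREBP processing, -0.033 for uptake and transport, -0.11 for fatty acid synthesis and -0.035 for efflux and esterification. The summed values of the 8 genes were 721.4 with mock, 653.1 with sgL1ASP #1 and 640.9 with sgL1ASP #3.

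The share of all genes past 1.5-fold was 7.83% with sgL1ASP #1, 7.97% with sgL1ASP #3 and 8.19% between the guides without a filter on low values. It was 1.87%, 2.04% and 2.02% when each library had to reach FPKM 1, and 1.52%, 1.52% and 1.56% with mean FPKM at least 10. No paired analysis was possible because the groups hold 1 sample each and share no replicate pairs.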
